A study of Mus musculus with 6 samples.

Results

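The genes described here carry the insulin signal inside fat cells: the insulin receptor gene Insr, the docking protein genes Irs1 and Irs2, the phosphoinositide 3-kinase (PI3K) subunit genes Pik3r1 and Pik3ca, the kinase genes Akt1 and Akt2, the glucose transport regulator gene Tbc1d4, and the transcription factor genes Foxo1 and Foxo3. They were chosen by name, and all 10 were found among the 35976 genes of the count table and among the 13007 genes with enough counts to be tested. RNA was sequenced from brown adipose tissue (BAT) of 3 wild-type littermates (WT) and 3 mice of the CarS2-AKO genotype (AKO), all kept at 4 °C for 4 h before harvest. In AKO mice a floxed Cars2 gene was deleted by Cre recombinase driven by the Adiponectin promoter, which is active in adipocytes of every fat depot, so other cells of BAT keep the gene. The labels call the controls wild type, the study's text calls its controls Flox, and sex and age are not tied to these 6 mice, since the methods speak of males only for the feeding experiments and give a range of ages over all experiments. Nothing in the labels states that each library came from a separate animal, though the study's figure legend gives 3 AKO mice and 3 controls. The p-values measure the spread between libraries.

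Insulin binds its receptor tyrosine kinase, which phosphorylates IRS proteins. These recruit PI3K, made of a regulatory subunit (p85 alpha, from Pik3r1) and a catalytic subunit (p110 alpha, from Pik3ca), and the lipid it makes brings AKT to the membrane. AKT then releases the brake that TBC1D4 (AS160) puts on the movement of the glucose transporter GLUT4, and it phosphorylates FOXO transcription factors, which leave the nucleus. In brown fat this route drives glucose uptake and lipid synthesis, and much of its control lies in protein phosphorylation, which mRNA counts do not measure.

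Library totals ranged from 6540619 to 8461685 counts. Levels are given as CPM, the count of a gene relative to its library size after TMM scaling, and changes as the log2 fold change of AKO over WT with its standard error (SE) from edgeR. Cars2 was at 786, 459 and 632 CPM in WT and at 220, 248 and 132 CPM in AKO, without overlap. Of 8 brown adipocyte markers 8 fell. The summed level of 8 adipocyte markers was 22634 to 25022 CPM in WT and 13949 to 17451 CPM in AKO. Conversely, the sum of 10 macrophage markers was 203 to 245 CPM in WT and 788 to 1083 CPM in AKO, and that of 10 skeletal muscle markers was 89.8 to 461 CPM in WT and 960 to 1965 CPM in AKO. All 10 macrophage and all 10 muscle markers rose. Of 8 fibroblast and progenitor markers 6 rose and 0 fell, with sums of 590 to 923 CPM in WT and 1634 to 2061 CPM in AKO. Of 6 Schwann cell markers 2 fell and 0 rose, with sums of 132 to 180 CPM in WT and 77.6 to 107 CPM in AKO. The part of these cell types in the results was not tested. In bulk tissue, fewer adipocytes and less RNA per adipocyte cannot be told apart.

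Of the 10 insulin and FOXO genes, 5 fell in AKO, 1 rose and 4 did not pass the test (quasi-likelihood test of edgeR, called at an adjusted p under 0.05). Insr, Irs1, Irs2, Akt1 and Pik3ca were the genes that fell, Pik3r1 rose, and Akt2, Foxo1, Foxo3 and Tbc1d4 did not pass. The test called 37.6% of all genes, 20.2% as higher and 17.5% as lower. The 3 AKO libraries all lay below the 3 WT libraries for 5 of the 10 genes, the same ones that fell, and all above them for 0. Over all genes tested, groups did not overlap for 50.1%, with AKO lower for 24.4%. The median log2 fold change of the 10 genes was −0.34, against 0.01 for all genes tested. Scaling by library totals alone called 3014 genes higher and 1608 lower over the whole table, in place of 2623 and 2274, and moved the median of all genes to 0.10. It again called 5 insulin and FOXO genes lower and 1 higher. Together the 10 genes took 0.0938% to 0.104% of all counts in WT libraries and 0.0778% to 0.0876% in AKO libraries.

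**Figure D1:**
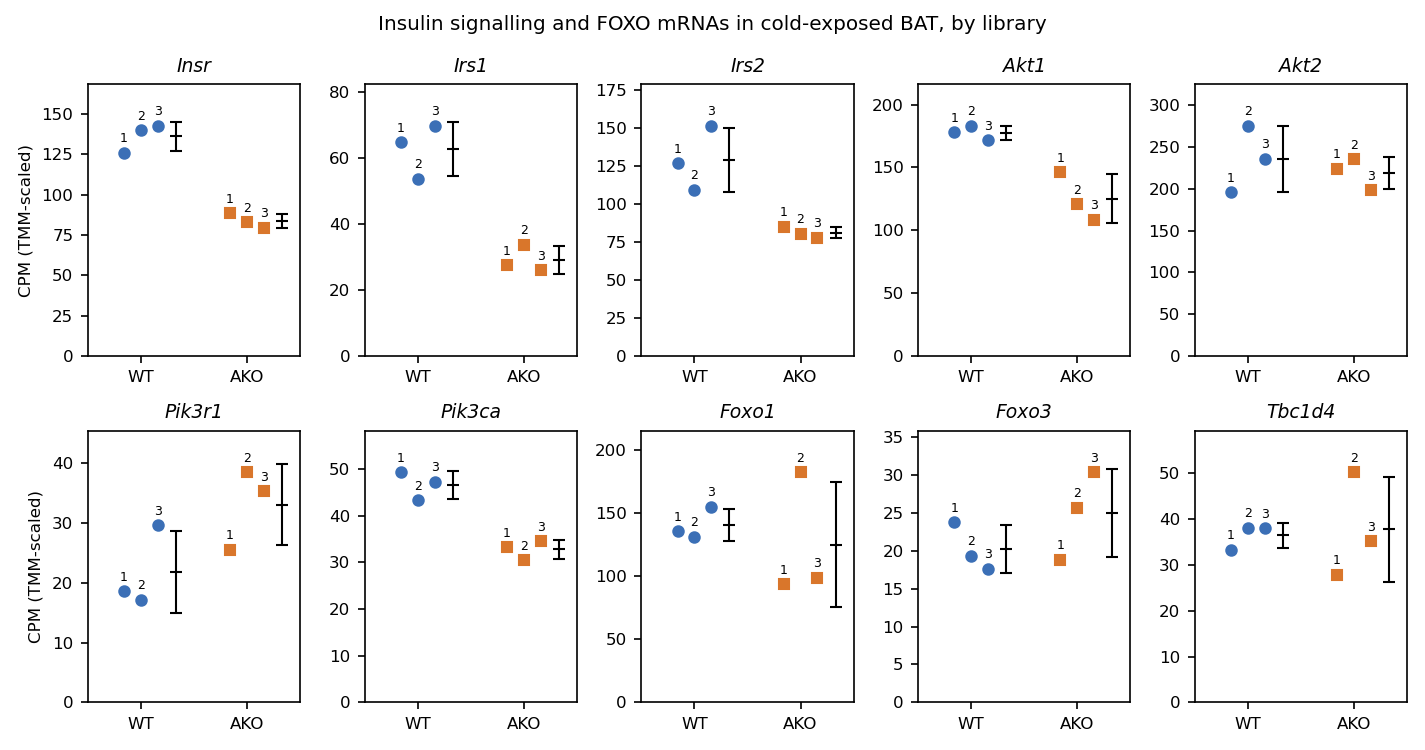
Level in CPM (vertical axes, each starting at 0) of the 10 genes in the 3 WT (circles) and 3 AKO (squares) libraries, numbered by replicate, with the mean and SD of each group beside the points. The groups lie apart for Insr, Irs1, Irs2, Akt1 and Pik3ca, while Foxo1 and Tbc1d4 are highest in AKO replicate 2, at 182 and 50.2 CPM.

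Insr encodes the insulin receptor and lies on mouse chromosome 8 from 3122061 to 3279617 (build GRCm38, GENCODE). Its level was 126, 140.2 and 143 CPM in WT libraries and 88.5, 83.1 and 79.4 CPM in AKO libraries. The lowest WT library stood well above the highest AKO library, and libraries within each group were close. WT libraries averaged 136 ± 8.93 CPM and AKO libraries 83.7 ± 4.59 CPM (SD, n = 3), and the log2 fold change was −0.70 ± 0.12 (SE, with adjusted p = 0.000634 in edgeR), a level that fell by 38.6%. Igf1r, which encodes the closely related receptor for insulin-like growth factor 1, averaged 13.8 ± 1.68 CPM over WT libraries and 13.8 ± 1.19 CPM over AKO libraries (SD, n = 3), with overlapping groups and a log2 fold change of 0.0047 ± 0.17 (SE).

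Irs1 and Irs2 encode the docking proteins that the receptor phosphorylates. Irs1 (chromosome 1, 82233101 to 82291416) was at 64.9, 53.7 and 69.8 CPM in WT and at 27.5, 33.8 and 26.1 CPM in AKO. No AKO library reached the lowest WT library, and Irs1 showed the largest fitted change of the 10 genes. The fit gave a log2 fold change of −1.11 ± 0.15 (SE, with adjusted p = 0.000120 in edgeR), a level that fell by 53.6%. It lay between −1.23 and −1.03 when any 1 library was left out. An antisense gene overlaps 30.9% of Irs1 exon bases (GENCODE), and its part in the Irs1 counts was not tested.

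Irs2 (chromosome 8, 10984681 to 11008458) was at 127, 109 and 151 CPM in WT and at 85.1, 80.5 and 77.7 CPM in AKO. Its WT libraries were spread wider than its AKO libraries, without overlap between groups. On the log2 scale Irs2 changed by −0.67 ± 0.14 (SE, with adjusted p = 0.00224 in edgeR). Irs2 lies 505.5 kb from Cars2 on the same chromosome, and Insr 8.23 Mb from it. Of 12 genes tested within 1 Mb of Cars2, 4 fell, Irs2 among them, 1 rose and 7 did not pass. Over all genes tested, 17.5% were called lower and 20.2% higher. Any part of the Cars2 locus in the Irs2 level was not tested. This neighbourhood was looked at after the values were seen. Irs3, the further IRS gene of mice, averaged 11.5 CPM over WT and 12.3 CPM over AKO libraries (adjusted p = 0.715 in edgeR), and Irs4 had no count in any library.

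The promoters of Irs1 and Irs2 are shown because both docking protein genes fell and their sequences share motifs. RefSeq (GRCm38.p6) promoter windows, from 250 bases before to 50 bases after a transcription start, were found for 9 of the 10 genes, with no entry for Insr. The stretch of Irs1 is chr1:82291500-82291599 on the minus strand, from 160 to 61 bases before the RefSeq start. That of Irs2 is chr8:11008930-11009029 on the minus strand, from 100 bases to 1 base before its RefSeq start. GENCODE instead starts Irs1 at 82291416 and Irs2 at 11008458, so both stretches lie farther before those starts. Capitals mark the E-box CACGTG, which basic helix-loop-helix factors bind, and the insulin response element TGTTTTG, a sequence that FOXO factors can bind.
Irs1: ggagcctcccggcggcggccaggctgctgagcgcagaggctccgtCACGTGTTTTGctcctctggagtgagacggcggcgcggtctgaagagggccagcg
Irs2: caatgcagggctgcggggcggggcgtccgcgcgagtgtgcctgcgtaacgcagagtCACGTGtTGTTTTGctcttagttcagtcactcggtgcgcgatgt

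In Irs1 the motifs overlap, with a further TGTTTTG 32 bases before the start outside the stretch shown, and in Irs2 they are separated by 1 base. Of 32851 windows of 300 bases, 7.15% held CACGTG, 6.28% held TGTTTTG and 0.408% held both, reading both strands. Among the 14 windows of the 9 genes, the pair occurred in those of Irs1 and Irs2 and in no other. These matches describe the sequence only, since binding was not measured here, and the pair was noticed after the sequences were seen.

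The PI3K subunit genes moved in opposite directions. Pik3ca, the catalytic subunit gene (chromosome 3, 32397671 to 32468486), was at 49.3, 43.3 and 47.3 CPM in WT and at 33.2, 30.5 and 34.6 CPM in AKO. The highest AKO library lay below the lowest WT library, and the spread within groups was small. Pik3ca had a log2 fold change of −0.51 ± 0.12 (SE, with adjusted p = 0.00671 in edgeR).

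Pik3r1, the regulatory subunit gene (chromosome 13, 101680563 to 101768217), was at 18.6, 17.2 and 29.6 CPM in WT and at 25.6, 38.5 and 35.3 CPM in AKO. WT replicate 3 was higher than AKO replicate 1, so the groups overlapped. Pik3r1 rose by 0.60 ± 0.21 on the log2 scale (SE, with adjusted p = 0.0393 in edgeR). It no longer passed the test without WT replicate 1 (0.50), WT replicate 2 (0.45), AKO replicate 2 (0.48) or AKO replicate 3 (0.56). Over all alternatives, adjusted p ranged from 0.00284 to 0.166. Pik3r1 has separate starts for its long and short protein forms, which gene counts do not separate.

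Akt1 and Akt2 encode kinases of the same family, of which AKT2 is best known for insulin-stimulated glucose uptake in fat and muscle. Akt1 (chromosome 12, 112653821 to 112674884) was at 178, 183 and 172 CPM in WT and at 146, 121 and 108 CPM in AKO. Every AKO library was below every WT library, and the AKO libraries were spread wider. Akt1 had a log2 fold change of −0.50 ± 0.13 (SE, with adjusted p = 0.0103 in edgeR).

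Akt2 (chromosome 7, 27591552 to 27640826) was at 196, 275 and 236 CPM in WT and at 224, 235 and 198 CPM in AKO. All AKO values lay within the WT range. Akt2 had a log2 fold change of −0.10 ± 0.14 (SE, with adjusted p = 0.603 in edgeR), which ranged from −0.22 without WT replicate 1 to 0.015 without WT replicate 2.

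Tbc1d4 encodes AS160, the AKT substrate that holds GLUT4 vesicles inside the cell (chromosome 14, 101442360 to 101609191). It was at 33.3, 38.1 and 38.0 CPM in WT and at 27.8, 50.2 and 35.2 CPM in AKO. AKO libraries lay on both sides of the WT range. Tbc1d4 had a log2 fold change of 0.049 ± 0.19 (SE, with adjusted p = 0.859 in edgeR), and −0.22 without AKO replicate 2.

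Foxo1 is the main FOXO gene of adipocytes and is known from mice to act in insulin-regulated metabolism and fat cell differentiation. It lies on chromosome 3 from 52268336 to 52353221. Its level was 136, 131 and 155 CPM in WT and 93.7, 182 and 98.9 CPM in AKO. AKO replicates 1 and 3 were below all WT libraries, and AKO replicate 2 was above them all. With the 6 libraries the log2 fold change was −0.17 ± 0.21 (SE, with adjusted p = 0.563 in edgeR). Without AKO replicate 2 it was −0.55 ± 0.14 (SE, with adjusted p = 0.0103 in edgeR) and passed the test. AKO replicate 2 was the AKO library with the highest summed muscle markers (1965 CPM), with AKO replicate 3 at 1913 CPM and AKO replicate 1 at 960 CPM. It also had the highest share of mitochondrially encoded counts of the 6 libraries, 28.6%, followed by AKO replicate 3 at 26.7%, with WT libraries at 20.1% to 20.6%. The part of these measures in the Foxo1 level was not tested.

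Foxo3 (chromosome 10, 42181841 to 42276755), which shares its DNA-binding domain type with Foxo1, was at 23.7, 19.4 and 17.6 CPM in WT and at 18.8, 25.7 and 30.3 CPM in AKO. The groups overlapped. Foxo3 had a log2 fold change of 0.29 ± 0.19 (SE, with adjusted p = 0.234 in edgeR), and leaving out 1 library gave from 0.14 without AKO replicate 3 (adjusted p = 0.630 in edgeR) to 0.47 without AKO replicate 1 (adjusted p = 0.0413), the only one of these fits that passed the test.

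**Figure D2:**
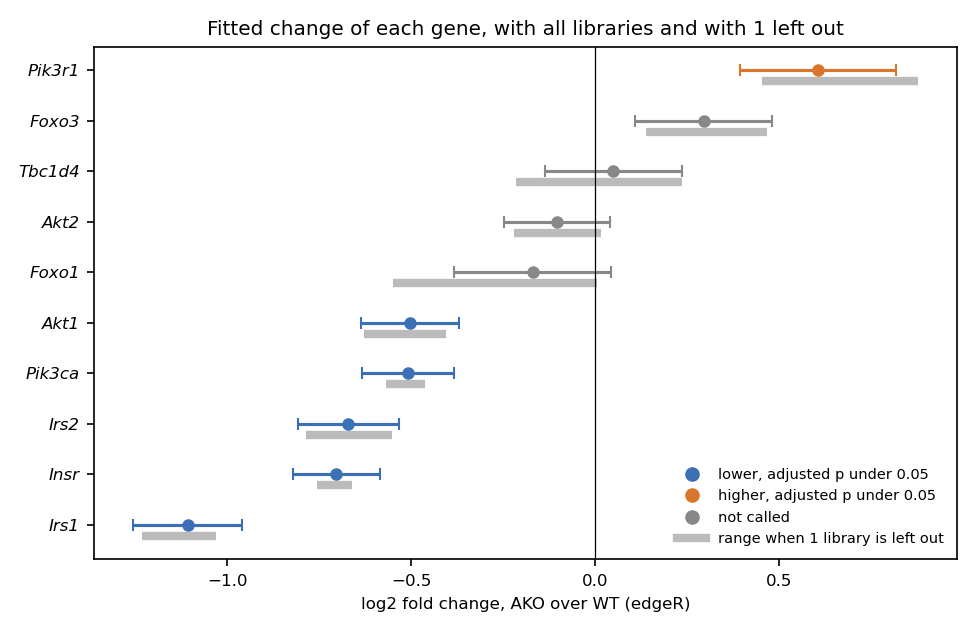
Fitted log2 fold change of AKO over WT for each gene (points, horizontal axis) with its SE (whiskers), and the range of the fitted value when any 1 library is left out (grey bars). The 5 genes that fell stay below 0 throughout, from −1.23 for the lowest value of Irs1 to −0.41 for the highest of Akt1, whereas the bars of Akt2, Foxo1 and Tbc1d4 cross 0.

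Foxo1 and Akt1 promoter stretches are shown because each holds a motif that bears on this study or pathway. The EBF palindrome, TCCC and GGGA separated by any 2 bases, is bound by EBF factors, the family of EBF2, which the study examines, and TGTTTAC is the core FOXO site. The stretch of Foxo1 is chr3:52268197-52268296 on the plus strand and that of Akt1 is chr12:112674995-112675094 on the minus strand, with each motif in capitals.
Foxo1: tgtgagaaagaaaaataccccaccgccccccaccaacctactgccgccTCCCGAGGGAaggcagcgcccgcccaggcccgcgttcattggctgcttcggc
Akt1: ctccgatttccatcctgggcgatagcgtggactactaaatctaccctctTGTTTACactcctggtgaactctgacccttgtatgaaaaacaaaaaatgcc

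The palindrome occurred in 0.904% of all windows and, among these genes, in that of Foxo1, and TGTTTAC occurred in 3.65% of windows and here in 1 of the windows of Akt1. Of the other motifs searched on both strands, TGACGTCA (the cAMP response element, in 1.79% of windows) and the NRF1 core (GCGCA followed directly by TGCGC, in 0.971%) were in none of the 14 windows. The shorter TGACG was in 5 of 14 windows and 20.8% of all, CCAAT in 4 genes and 37.4% of all windows, TATAAA in Pik3r1 and 13.6% of all, and the GC box GGGCGG in 9 of 14 windows and 35.7% of all. Akt1, which holds the FOXO core, fell, and Foxo1, which holds the EBF palindrome, did not pass the test with all libraries. Both are sequence matches among 10 motifs searched, binding was not measured here, and their part in these levels was not tested.

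Levels were compared between genes as CPM per kb of annotated exon (GENCODE). In WT, Akt1 stood highest at 43.3 ± 1.39 CPM per kb (SD, n = 3), above Akt2 at 27.4 to 38.6 CPM per kb. Irs2 (20.4 CPM per kb) and Foxo1 (16.2 CPM per kb) came next and overlapped, and then Insr at 9.92 and Irs1 at 6.87 CPM per kb. Pik3ca (5.13) and Tbc1d4 (4.75 CPM per kb) overlapped, as did Foxo3 (2.67) and Pik3r1 (2.16 CPM per kb) at the low end. In AKO, Akt1 at 30.5 ± 4.73 and Akt2 at 30.7 ± 2.66 CPM per kb overlapped, and Irs1 moved from the sixth to the last place at 3.18 ± 0.45 CPM per kb (SD, n = 3), overlapping Pik3r1 (3.29) and Foxo3 (3.29 CPM per kb). Annotated exons include those of isoforms that BAT may not use, so this order is approximate.

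Ratios of paired genes within a library do not depend on the scaling. The log2 ratios of 5 pairs were set against genotype in exact permutation tests (two-sided, 20 arrangements of the libraries), which cannot give a p below 0.10. The count ratio of Irs1 to Irs2 was 0.511, 0.491 and 0.461 in WT and 0.323, 0.420 and 0.335 in AKO. Irs1 thus fell relative to Irs2 in each AKO library, with a log2 difference of −0.45 (exact permutation p = 0.10, adjusted over the 5 pairs 0.125). The ratio of Akt1 to Akt2 was 0.910, 0.665 and 0.728 in WT and 0.653, 0.514 and 0.547 in AKO, without overlap (−0.42, exact permutation p = 0.10, adjusted 0.125).

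The ratio of Pik3r1 to Pik3ca counts was 0.377, 0.397 and 0.627 in WT and 0.769, 1.26 and 1.02 in AKO. This was the largest shift of the 5, from below 1 in all WT libraries to around 1 in AKO (1.13 on the log2 scale, exact permutation p = 0.10, adjusted 0.125). The ratio of Insr to Igf1r was 8.99, 11.7 and 9.33 in WT and 6.36, 6.61 and 5.31 in AKO (−0.71, exact permutation p = 0.10, adjusted 0.125). For Foxo1 to Foxo3 the groups overlapped, at 5.71, 6.79 and 8.81 in WT and 4.97, 7.10 and 3.26 in AKO (−0.52, exact permutation p = 0.30, adjusted 0.30).

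**Figure D3:**
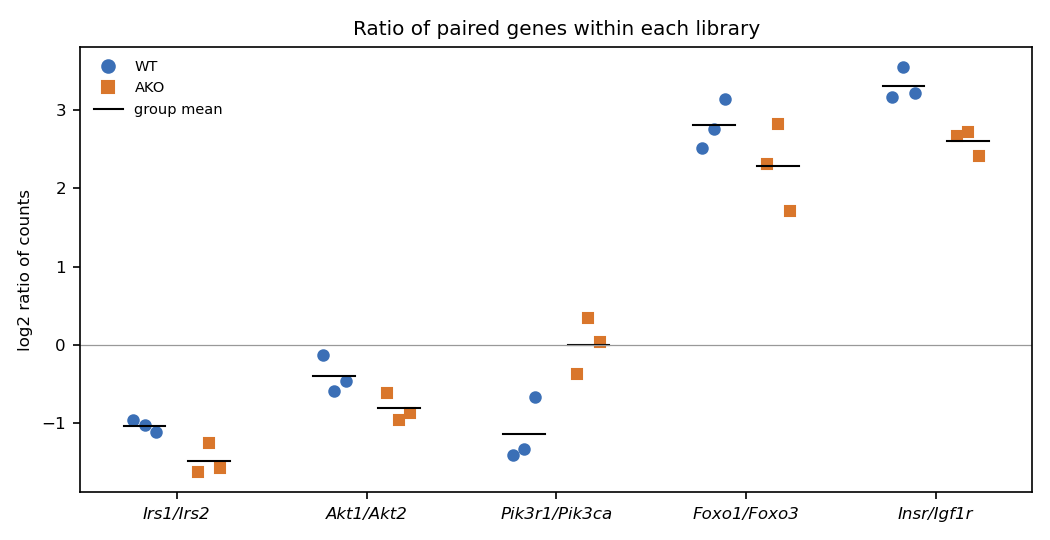
Log2 ratio of the counts of 2 genes within each library (vertical axis) for 5 pairs, with WT libraries as circles, AKO libraries as squares and the group mean as a line. The groups lie apart for 4 pairs and overlap for Foxo1/Foxo3, and Pik3r1/Pik3ca shows the largest shift, from a mean of −1.14 in WT to −0.0045 in AKO.

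Since adipocyte markers were lower in AKO, each gene was also set against their summed CPM, which is made up mostly of Fabp4 and Lpl and differed by −0.57 on the log2 scale. This comparison was added after the values were seen. Irs1 was still lower without overlap, by −0.54 (exact permutation p = 0.10). Insr and Irs2 overlapped between groups, at −0.13 and −0.089, as did Akt1 and Pik3ca, at 0.056 and 0.063. Akt2 (0.48), Foxo3 (0.86) and Pik3r1 (1.20) were higher relative to the adipocyte markers without overlap (exact permutation p = 0.10 each). Tbc1d4 (0.58) and Foxo1 (0.33) were higher with overlapping groups (exact permutation p = 0.2 and 0.3). Markers in this sum did not move alike, since Pparg rose by 0.48 and Lipe was at 0.11.

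Other genes of the pathway were taken from 7 lists. Of 132 that were tested, 27 rose and 31 fell, leaving 74 without a call, so that 43.9% were called against 37.6% of all genes, with a median log2 fold change of −0.054. Scaling by library totals alone gave 31 higher and 23 lower. Among 18 adaptors and inhibitors of the receptor, 5 fell and 3 rose, so that 44.4% were called. Grb14, an adaptor that binds and inhibits the active insulin receptor, was at 21.1, 19.4 and 15.6 CPM in WT and at 55.2, 63.1 and 52.2 CPM in AKO, a rise of 1.60 ± 0.15 on the log2 scale (SE, with adjusted p = 1.12e-05 in edgeR). Socs3, a cytokine-induced gene whose protein can block IRS proteins, rose by 2.08 ± 0.22 from 3.48 to 14.7 CPM on average. Conversely, the adaptor genes Sh2b2 (APS) and Sh2b1, whose proteins bind the active receptor, changed by −0.96 ± 0.15 and −0.94 ± 0.15 (SE). Ptpn1, which encodes a phosphatase of the receptor, was at −0.024 and did not pass, a gene picked after its value was seen.

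Of 13 further PI3K subunits and lipid phosphatases, 6 rose and 2 fell (median 0.53), 61.5% called against 37.6% of all genes. Among those that rose were Pik3r5 (2.80 ± 0.24), Pik3cd (1.84 ± 0.36) and Inpp5d (1.36 ± 0.19, SE), genes known mainly from leukocytes, and these were below 20 CPM on average in both groups. The macrophage markers given above, 10 of 10 of which rose, moved with them, and their part in this result was not tested. Pik3ip1, an inhibitor of PI3K, rose by 1.06 ± 0.27 (SE). Pik3cb, a further catalytic subunit gene named after its value was seen, changed by −0.44 ± 0.15 (SE). The list had 0 genes called lower with upper-quartile factors, with library totals alone, with a filter at a mean of 5 CPM, or without WT replicate 1, WT replicate 3 or AKO replicate 1.

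Of 21 activators and inhibitors of AKT, 5 fell and 3 rose, 38.1% called against 37.6% of all genes. The list had 3 falling without WT replicate 2 or AKO replicate 2, and 1 rising without WT replicate 3 or with DESeq2. Pdpk1, the kinase that activates AKT, was at 106, 96.6 and 106 CPM in WT and at 67.5, 56.0 and 55.5 CPM in AKO, a change of −0.78 ± 0.13 (SE, with adjusted p = 0.000456 in edgeR). Mlst8, a subunit of both mTOR complexes, changed by −0.71 ± 0.18 (SE). Among the pseudokinase genes of the Tribbles family, Trib1 changed by −1.10 ± 0.20 and Trib3, a stress-induced gene whose protein has been described to bind AKT, by 3.35 ± 0.16 (SE).

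Of 16 genes of mTORC1, GSK3 and metabolic outputs, 6 fell and 1 rose (median −0.19), 43.8% called against 37.6% of all genes. Eif4ebp2 and Eif4ebp1, both translation repressors that mTORC1 inactivates, went opposite ways, at −0.89 ± 0.14 and 0.71 ± 0.16 (SE). Rptor, the scaffold of mTORC1, changed by −0.83 ± 0.14 and Gys1, glycogen synthase, by −0.53 ± 0.12 (SE).

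Of 23 genes of GLUT4 traffic, 6 fell and 1 rose (median −0.15), 30.4% called against 37.6% of all genes. Vamp2, a fusion protein of GLUT4 vesicles, changed by −0.68 ± 0.12, and Ralgapa1 and Ralgapb, subunits of a GTPase-activating complex that AKT inhibits, by −0.55 ± 0.13 and −0.49 ± 0.12 (SE). The 1 that rose was Trip10 (0.57 ± 0.13, SE), while 3 rose with upper-quartile factors or library totals alone. With a filter at a mean of 5 CPM, or with mitochondrially encoded genes left out, 3 rose as well. Slc2a4, GLUT4 itself and picked after its values were seen, was at 419, 584 and 583 CPM in WT and at 388, 361 and 371 CPM in AKO, with a log2 fold change of −0.50 ± 0.15 (SE, with adjusted p = 0.0162 in edgeR).

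Of 19 FOXO family members and regulators, 5 rose and 4 fell, 47.4% called against 37.6% of all genes. The number that fell was 1 with library totals alone or without WT replicate 1 or 2. It was 2 with upper-quartile factors, a filter at a mean of 5 CPM, or mitochondrially encoded genes left out. It was also 2 without AKO replicate 2 or 3, and 3 rose without WT replicate 2. Sirt1, a deacetylase of FOXO proteins, rose by 0.74 ± 0.19, Ywhaz, a 14-3-3 protein gene, by 0.66 ± 0.14 and Prmt1, an arginine methyltransferase, by 0.53 ± 0.13, while Ctnnb1, beta-catenin, changed by −0.51 ± 0.12 (SE). Of 22 genes described as FOXO targets, mostly in liver and muscle, 8 rose and 3 fell (median 0.19), so that 50% were called. Of these targets 5 rose without WT replicate 2 or AKO replicate 3. Gadd45a, a growth arrest gene, rose by 4.22 ± 0.28 from 1.85 to 35.0 CPM on average, and Txnip, an inhibitor of glucose uptake, by 0.84 ± 0.14 (SE). Sod2, the mitochondrial superoxide dismutase, had a log2 fold change of −0.96 ± 0.13 (SE) and averaged 1112 ± 45.6 CPM over WT and 571 ± 45.6 CPM over AKO libraries (SD, n = 3). Trim63, a muscle ubiquitin ligase, rose by 2.69 ± 0.50 (SE), at 7.67, 0.637 and 3.00 CPM in WT and 13.4, 29.9 and 31.3 CPM in AKO. Skeletal muscle markers moved with Trim63 and were lowest in WT replicate 2 too, and their part in this rise was not tested. The textbook targets Pdk4 (0.092) and Pck1 (−0.15), picked after their values were seen, did not pass.

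**Figure D4:**
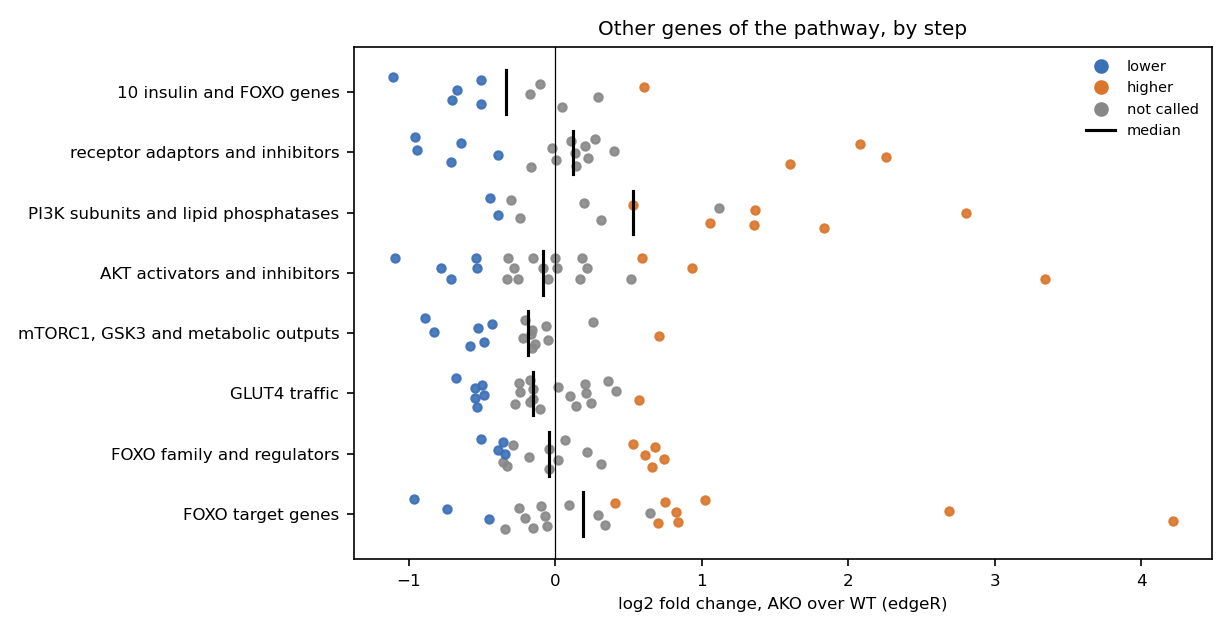
Log2 fold change of AKO over WT (horizontal axis) for the 10 insulin and FOXO genes and the tested genes of the 7 pathway lists, 1 point a gene, coloured by its call, with the median of each list as a black line. Medians run from −0.34 for the 10 genes to 0.53 for the PI3K subunits and lipid phosphatases, and every list holds genes called in either direction.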

How the data were processed

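BAT RNA of 3 WT and 3 AKO mice was sequenced after oligo(dT) enrichment, per the labels. The authors deposited whole-number counts per gene, not normalized. STAR, HTSeq and DESeq2 are named in the study's methods. RSEM 1.3.1, Bowtie2, DESeq2 1.4.5 and the mm10 build are listed, with no roles, by the submitters' processing notes. No annotation release, strand setting or treatment of shared reads is stated in the sources used here. In GENCODE, 30.9% of Irs1 exon bases, 7.78% of Foxo1 and 2.56% of Irs2 overlap an antisense gene. Their counts could hold antisense reads or lack reads shared with that gene. Gene symbols had become dates in 27 rows, which held 0.134% of counts and were tested but not named.

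Genes were kept by filterByExpr and tested with edgeR 4.0.16 in R 4.3.3 (TMM, glmQLFit and glmQLFTest, genotype as the only term, Benjamini-Hochberg over 13007 genes). The SE is the log2 fold change divided by the square root of F. Replicates differed by more than counting noise (chi-square per degree of freedom 5.17 to 17.6) and each library counted as 1 sample. In simulated counts for this comparison (12809 genes), 99 genes were changed by 1 on the log2 scale and 100 by 2, in either direction. Of these, 79.8% and 100% were recovered, and 4.79% of calls were false. Far more genes were called in the data (37.6%), so these rates may not carry over. Pik3r1 and Foxo3 had few counts, 129 to 303 a library, with SEs of 0.21 and 0.19. Foxo1, at 695 to 1435 counts, had an SE of 0.21, and Pik3ca, at 240 to 411 counts, one of 0.12. The part of depth in these SEs was not tested.

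Alternatives were RLE or upper-quartile factors, library totals only, a filter at a mean of 5 CPM or none on low counts, mitochondrially encoded genes left out, DESeq2 1.42.0, limma-voom (limma 3.58.1), the replicate number as a block, each library left out, and, for ratios, a pseudocount of 0.5. The genes and lists were chosen with earlier results of these data known. Genes named from the 7 lists are up to 4 called members of lowest p each, or the highest in level where fewer than 2 were called, and others are said to be picked after their values were seen. Of the lists, 1 gene is counted but not reported here by name.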

Additional observations from a re-analysis of the deposited data

How the results depend on the processing

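Over 15 alternatives, Insr, Irs1, Irs2, Akt1 and Pik3ca stayed lower and past the threshold in each, with adjusted p (edgeR, DESeq2 or limma) of at most 0.0469, reached by Akt1 without AKO replicate 3. Leaving out 1 library gave 5 to 6 lower and 0 to 2 higher genes of the 10, 0 higher without WT replicate 1 or 2 or AKO replicate 2 or 3 and 2 without AKO replicate 1. The median log2 fold change then ranged from −0.47, without AKO replicate 2, to −0.22, without AKO replicate 3. Genes that had not passed changed sign in 4 fits: Akt2 without WT replicate 2 (0.015, against −0.22 without WT replicate 1), Foxo1 without AKO replicate 1 (0.0055, against −0.55 without AKO replicate 2) and Tbc1d4 without WT replicate 1 (−0.011) or AKO replicate 2 (−0.22, against 0.24 without AKO replicate 1). Set against the adipocyte marker sum, an alternative chosen after seeing the data, Akt1 (0.056), Akt2 (0.48), Pik3ca (0.063) and Foxo1 (0.33) changed sign. Without 1 library, 21 to 27 pathway genes were higher and 21 to 30 lower. Replicate numbers showed no clear pairing of the samples, with same-numbered libraries correlated in their deviations at −0.019, 0.013 and 0.18. Differently numbered libraries ranged from −0.22 to 0.19, and 3 libraries a group cannot exclude a pairing. The fit with the replicate block gave 5 lower and 1 higher, a median of −0.37. The 28 named pathway genes kept direction and call in all 419 fits that could be made. They had been chosen by lowest p in these same data, so their stability was partly built in. The cause of these shifts was not tested. At 6540619 to 8461685 counts a library and 3 libraries a group, changes as small as those of Akt2 or Tbc1d4 could not be told from 0.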
